A study of Mus musculus with 12 samples.

Results

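Adipokines are proteins that adipose tissue releases into the blood or into its own surroundings. The transcripts described here were those of 10 genes, Lep, Adipoq, Retn, Cfd, Rbp4, Nampt, Rarres2, Apln, Nnat and Agt, chosen by name from the 54134 genes of the count table. Each name belonged to 1 gene identifier, and all 10 genes passed the filter on low counts that left 15585 genes to test. RNA-seq was run on inguinal white adipose tissue (iWAT, a subcutaneous fat pad) of 12 male C57BL/6J mice. At 8 weeks of age, each mouse was given a tail vein injection of an adeno-associated virus of serotype 8 (AAV). The vector expressed either green fluorescent protein (AAV-GFP, 6 mice) or mouse Notum (AAV-Notum, 6 mice), in both cases from a liver-specific thyroxine binding globulin promoter. All mice then ate chow for 4 weeks and were fasted for 4 h before the fat was taken. NOTUM is a secreted enzyme that removes a lipid from Wnt proteins and so inactivates them, and in this model the liver makes and releases it.

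Leptin, adiponectin, resistin and adipsin are made almost wholly by mature fat cells in the mouse, and leptin transcript follows the size and lipid content of the cell. Adiponectin falls as fat mass grows, whereas leptin rises. Other adipokines, such as chemerin, angiotensinogen and visfatin, are also made by liver or other tissues, so that their transcripts in fat are not specific to fat cells. Neuronatin is not a hormone but a small membrane protein, imprinted and expressed from the paternal allele, that is included with these genes because fat cells express it strongly.

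The libraries held 14711113 to 21618860 counts per mouse. Levels are given as CPM (reads per gene relative to the library total, scaled by the TMM factors of edgeR). The fat cell identity of the samples was checked with 20 adipocyte markers, whose mean log2 CPM lay between 9.88 and 10.76 under AAV-GFP and between 9.67 and 10.77 under AAV-Notum. The samples also held other cells in unequal amounts. The summed level of 16 lymphoid markers was 19.3 CPM in AAV-GFP mouse S_2011 and 10.7 CPM in AAV-GFP mouse S_2014, against 375 to 2066 CPM in the other 4 AAV-GFP mice and 653 to 2834 CPM in the AAV-Notum mice, with no marker at 0 in any mouse. AAV-GFP mouse S_2012 was the one mouse whose RNA was isolated on another day. The RNA integrity number was 5.7 in AAV-GFP mouse S_2011 and 6.6 to 7.6 in the other 11 mice. Notum itself had 1 to 17 reads in the fat of the AAV-GFP mice and 8 to 16 in 4 AAV-Notum mice, but 560 reads in mouse S_2032 and 433 in mouse S_2041, and the liver, where the vector acts, was not measured here. The hepatocyte transcript Alb was at 90.7 CPM in mouse S_2032 and 523 CPM in mouse S_2041, against 17.8 to 44.3 CPM in the other 4 AAV-Notum mice. Whether the Notum reads came from liver RNA was not tested.

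None of the 10 transcripts differed between the groups at an adjusted p under 0.05 (edgeR's quasi-likelihood test, Benjamini-Hochberg adjustment over 15585 genes). The same held with DESeq2 and with limma-voom. Of all genes tested, 8 were lower in the AAV-Notum mice at that threshold (0.0513%) and 0 were higher. That background depended on the tool, since DESeq2 called 402 genes lower and 94 higher, and on single mice, since edgeR called 146 lower without AAV-GFP mouse S_2022 and 1 without AAV-Notum mouse S_2033. At an unadjusted p under 0.05, 3 of the 10 were lower in AAV-Notum mice (Nnat, Apln and Rarres2) and 0 were higher. The background for those counts was 9.54% of all genes lower and 4.64% higher. None of the 3 kept an unadjusted p under 0.05 with the lymphoid score as a covariate, or without AAV-GFP mice S_2011 and S_2014. After adjustment for RNA integrity number all 3 did, at log2 fold changes of -0.85 for Nnat, -0.47 for Apln and -0.49 for Rarres2, and that of Lep was -0.80 (adjusted p = 0.696, edgeR). The same 3 genes had an exact permutation p under 0.05, against 7.79% of all genes lower by that test. The log2 fold change of 9 of the 10 was below 0, against 48.8% of all genes, and their median was -0.42, against 0.01 for all genes tested. In 0 members did the groups separate with AAV-Notum wholly below, a separation found in 0.693% of all genes. These are bulk samples, in which fewer cells of a type and less RNA per cell cannot be told apart.

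**Figure D1:**
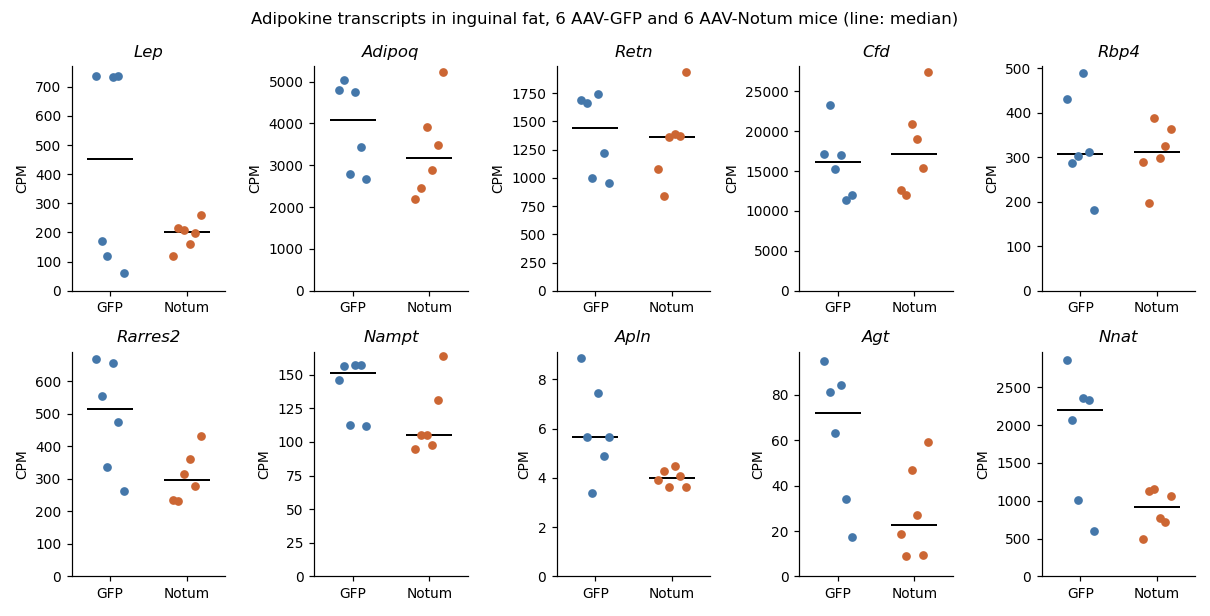
Level of each adipokine transcript in CPM (linear axis from 0) in the 6 AAV-GFP and 6 AAV-Notum mice, 1 point per mouse, with the line at the group median. Lep in 3 AAV-GFP mice stands at 733 to 737 CPM while the other 9 mice lie between 59.5 and 261 CPM, and the groups of Cfd, Retn and Rbp4 cover nearly the same range.

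Leptin, the hormone that reports fat stores to the hypothalamus, is encoded by Lep on chromosome 6 of GRCm38 (29060220 to 29073877, plus strand). Lep was at 119 CPM in the lowest, 203 CPM in the median and 261 CPM in the highest AAV-Notum mouse. The AAV-GFP mice did not form 1 cluster. Mice S_2011, S_2014 and S_2021 had 736, 733 and 737 CPM, and the other 3 had 172, 119 and 59.5 CPM, within or below the range of the AAV-Notum mice. On the log2 scale the widest gap between neighbouring mice, 1.49, lay between the 3 high mice and the other 9. The edgeR fold change compares group means, 426 ± 341 CPM under AAV-GFP and 193 ± 48.7 CPM under AAV-Notum (SD, n = 6 each). Its log2 was -1.14, with a standard error of 0.56 and an adjusted p of 0.372. On the log2 scale, where the 3 high mice weigh less, the difference of means was -0.58 (exact permutation test, two-sided, p = 0.416), and limma-voom gave -0.53 (adjusted p = 0.607). The AAV-GFP mean exceeded every AAV-Notum value, but the lowest AAV-GFP value exceeded none. The 2 AAV-GFP mice with the fewest lymphoid transcripts were among the 3 of high Lep, while the third, mouse S_2021, had a summed lymphoid level of 1440 CPM. Without mice S_2011 and S_2014 the log2 fold change of Lep was -0.50 (adjusted p = 0.916, edgeR). Over 26 alternatives it ran from -1.37, without AAV-GFP mouse S_2022, to -0.43, with the lymphoid score as a covariate. In 4 of them, DESeq2 among these, Lep had an unadjusted p under 0.05.

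Neuronatin, the imprinted membrane protein described above, is encoded by Nnat on chromosome 2 (157560078 to 157562522, plus strand). Nnat was at 595 CPM in the lowest, 2198 CPM in the median and 2854 CPM in the highest AAV-GFP mouse. In the AAV-Notum mice it was at 490, 915 and 1156 CPM. AAV-GFP mice S_2011, S_2012, S_2014 and S_2021, at 2067 to 2854 CPM, were above every AAV-Notum mouse, while AAV-GFP mice S_2013 and S_2022 lay in the AAV-Notum range. Its log2 fold change was -1.07, with a standard error of 0.36 (adjusted p = 0.228 by edgeR, exact permutation p = 0.0433), and the smallest adjusted p that any alternative gave was 0.0567, with DESeq2. The 3 mice of high Lep also had the 3 highest Nnat levels, 2329 to 2854 CPM, while AAV-GFP mouse S_2012 had 2067 CPM of Nnat with 172 CPM of Lep. Nnat lies wholly inside an intron of Blcap, a gene on the opposite strand, and shares 2445 bases of its span but 0 exonic bases with it. With the miRNA gene Gm23134, also on the opposite strand, Nnat shares 87 exonic bases. Whether the counting used strand is not given in the sources used here. Blcap, a broadly expressed gene, had a log2 fold change of -0.18 (adjusted p = 0.661, edgeR).

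The sequences before the start sites of these genes and of the pair that varied most alike among mice, Adipoq and Retn, are printed so that the promoters can be compared. Each is the RefSeq sequence of GRCm38.p6 in the 250 bases before the annotated start, 5′ to 3′ on the gene's own strand. Capitals mark matches, on either strand, to 5 motifs: the C/EBP core TTGCNNAA, the box with TATAAA, the box with CCAAT, the GC box GGGCGG and the E-box CACGTG. Matches to different motifs did not overlap in the printed sequences.
Lep (chr6:29059971-29060220, plus strand): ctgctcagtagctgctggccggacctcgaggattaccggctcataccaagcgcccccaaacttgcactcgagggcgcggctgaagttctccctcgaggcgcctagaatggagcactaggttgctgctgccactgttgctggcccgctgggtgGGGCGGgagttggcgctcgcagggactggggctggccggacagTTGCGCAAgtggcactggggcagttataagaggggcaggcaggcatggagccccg
Nnat (chr2:157559828-157560077, plus strand): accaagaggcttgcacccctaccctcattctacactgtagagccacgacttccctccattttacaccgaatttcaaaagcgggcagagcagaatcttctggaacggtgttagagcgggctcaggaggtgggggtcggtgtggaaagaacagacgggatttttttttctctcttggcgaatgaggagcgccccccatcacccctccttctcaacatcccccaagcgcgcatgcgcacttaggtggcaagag
Adipoq (chr16:23146286-23146535, plus strand): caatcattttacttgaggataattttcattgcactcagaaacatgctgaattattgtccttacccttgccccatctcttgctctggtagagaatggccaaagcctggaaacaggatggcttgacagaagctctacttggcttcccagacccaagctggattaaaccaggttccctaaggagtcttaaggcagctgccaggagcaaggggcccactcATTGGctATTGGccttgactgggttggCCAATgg
Retn (chr8:3655520-3655769, plus strand): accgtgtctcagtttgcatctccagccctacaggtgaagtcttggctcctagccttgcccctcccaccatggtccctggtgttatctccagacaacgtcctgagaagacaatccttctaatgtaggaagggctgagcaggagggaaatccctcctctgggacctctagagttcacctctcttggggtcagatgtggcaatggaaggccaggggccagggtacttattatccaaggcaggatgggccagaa
The Lep promoter held the palindromic C/EBP match TTGCGCAA, its first base 55 bases before the start, and a GC box 98 bases before it. The Adipoq promoter held 3 CCAAT matches, at 34, 27 and 7 bases. Those of Nnat and Retn held none of the 5 motifs. Over the 32851 mouse promoters of the same length, the share with a match was 9.56% for the C/EBP letters, 12.4% for the TATA box, 33.8% for CCAAT, 32.7% for the GC box and 6.02% for the E-box. Of the other members, Agt had a TATA box 30 bases before its start, the downstream one of the Rbp4 starts had a TATA box at 28, the C/EBP letters TTATGCAA at 128 bases and 2 GC boxes at 114 and 99, the upstream one had a CCAAT match at 162 bases, Nampt had 5 GC boxes, Apln 1, and Cfd no match. A match is only a match of letters.

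Adiponectin, which raises insulin sensitivity, is encoded by Adipoq on chromosome 16 (23146536 to 23158028, plus strand). Adipoq was at 2681 CPM in the lowest, 4086 CPM in the median and 5036 CPM in the highest AAV-GFP mouse. In the AAV-Notum mice it was at 2194, 3177 and 5222 CPM. The ranges overlapped almost wholly, the highest mouse of all being AAV-Notum mouse S_2042. Adipoq thus differed by a log2 fold change of -0.22 with a standard error of 0.26 (adjusted p = 0.635 by edgeR, exact permutation p = 0.364), which is within the spread between mice.

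Resistin, which opposes insulin in the mouse, is encoded by Retn on chromosome 8 (3655770 to 3660110, plus strand). Retn was at 955 to 1742 CPM in AAV-GFP mice (median 1440 CPM) and at 841 to 1938 CPM in AAV-Notum mice (median 1365 CPM). The difference was the smallest of the 10, a log2 fold change of -0.05 with a standard error of 0.22 (adjusted p = 0.909 by edgeR, exact permutation p = 0.816). The sign of this value differed between alternatives.

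Adipsin, or complement factor D, the protease that cuts factor B in the alternative pathway of complement, is encoded by Cfd on chromosome 10 (79890853 to 79892655, plus strand). Cfd alone took 1.14% to 2.17% of all counts in AAV-GFP mice and 1.33% to 2.41% in AAV-Notum mice. It was at 11402 to 23283 CPM in AAV-GFP mice (median 16143 CPM) and at 11998 to 27380 CPM in AAV-Notum mice (median 17166 CPM). Cfd had the only positive log2 fold change among the members, 0.16 with a standard error of 0.30 (adjusted p = 0.783 by edgeR, exact permutation p = 0.569), and it was -0.00465 without AAV-Notum mouse S_2042, which had the highest Cfd level.

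Retinol binding protein 4, the carrier of vitamin A in plasma, is encoded by Rbp4 on chromosome 19 (38116629 to 38125281, minus strand). Rbp4 was at 180 to 490 CPM in AAV-GFP mice (median 307 CPM) and at 198 to 388 CPM in AAV-Notum mice (median 312 CPM). The groups differed by a log2 fold change of -0.10 with a standard error of 0.23 (adjusted p = 0.811 by edgeR, exact permutation p = 0.794). Liver also makes Rbp4 in large amounts. The summed level of 15 hepatocyte markers was 6924 CPM in AAV-GFP mouse S_2013 and 2123 CPM in AAV-GFP mouse S_2014, and 176 to 1128 CPM in the other mice. Low sums do not measure liver RNA alone, since the marker Trf averaged 291 CPM in AAV-GFP and 227 CPM in AAV-Notum mice. The marker Alb was at 3805 CPM in mouse S_2013, 963 CPM in mouse S_2014 and 17.8 to 523 CPM in the other mice. Rbp4 was at 303 CPM in mouse S_2013 and highest, 490 CPM, in mouse S_2014.

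Chemerin, a protein that attracts immune cells and acts on fat cells through its receptor CMKLR1, is encoded by Rarres2 on chromosome 6 (48569696 to 48572789, minus strand). Rarres2 was at 264 CPM in the lowest, 515 CPM in the median and 670 CPM in the highest AAV-GFP mouse. In the AAV-Notum mice it was at 233, 296 and 433 CPM. AAV-GFP mice S_2011, S_2012, S_2014 and S_2021 lay above every AAV-Notum mouse, and AAV-Notum mice S_2031 and S_2032 had less than any AAV-GFP mouse. Rarres2 had a log2 fold change of -0.67 with a standard error of 0.24 (adjusted p = 0.253 by edgeR, exact permutation p = 0.0433). On the deposited log2 values the exact permutation p was 0.0519, and without the 2 AAV-Notum mice with the most Notum reads the edgeR value was -0.55, with no unadjusted p under 0.05. Rarres2 shares 892 exonic bases with Lrrc61 on the opposite strand. In the second table of the series the reads of Rarres2 came to 43.4% to 46.9% of those in the first, those of Lrrc61 to 39.9% to 50.7% and those of Nnat to 83.2% to 87.1%, while the other 8 members had 100% to 104%. The levels of Rarres2 and Nnat therefore depend on the table, but with the reads of the second table their log2 fold changes were -0.67 and -1.05. Reads from Lrrc61 and Rarres2 in the shared exon cannot be told apart without strand. Lrrc61 was listed at 29.99 to 35.9 CPM in all 12 mice, and the part of its reads in the Rarres2 values was not tested.

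Visfatin, the enzyme NAMPT that makes the NAD precursor nicotinamide mononucleotide, is encoded by Nampt on chromosome 12 (32819545 to 32853349, plus strand). Nampt was at 112 to 157 CPM in AAV-GFP mice (median 151 CPM) and at 95.1 to 164 CPM in AAV-Notum mice (median 105 CPM). Levels under those of all AAV-GFP mice were found in 4 AAV-Notum mice, and mouse S_2042 was above them all. Nampt differed by a log2 fold change of -0.27 with a standard error of 0.15 (adjusted p = 0.413 by edgeR, exact permutation p = 0.0974).

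Apelin, the peptide ligand of the receptor APLNR in vessels and heart, is encoded by Apln on chromosome X (48025146 to 48034853, minus strand). It was the least abundant of the 10, with 55 to 158 reads per mouse. Apln was at 3.39 CPM in the lowest, 5.66 CPM in the median and 8.85 CPM in the highest AAV-GFP mouse. In the AAV-Notum mice it was at 3.63, 3.99 and 4.47 CPM. The AAV-GFP mice other than mouse S_2013, 5 in all, were above every AAV-Notum mouse, and mouse S_2013 was below them all. Apln had a log2 fold change of -0.58 with a standard error of 0.20 (adjusted p = 0.236 by edgeR, exact permutation p = 0.0260). The coefficient of variation was 32.1% in AAV-GFP mice and 8.54% in AAV-Notum mice. The highest values, 8.85 and 7.45 CPM, came from AAV-GFP mice S_2011 and S_2014. Mouse S_2011 had the lowest RNA integrity number.

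Angiotensinogen, the precursor of the angiotensins, is encoded by Agt on chromosome 8 (124556534 to 124569706, minus strand). Agt was at 17.4 CPM in the lowest, 72.2 CPM in the median and 94.8 CPM in the highest AAV-GFP mouse. In the AAV-Notum mice it was at 8.90, 22.9 and 59.2 CPM. The AAV-GFP mice S_2011, S_2012, S_2013 and S_2014 were above every AAV-Notum mouse. Agt had, with that of Lep, the most negative log2 fold change of the 10, -1.14 with a standard error of 0.53 (adjusted p = 0.353 by edgeR, exact permutation p = 0.0606). Agt is also a liver transcript. Its highest level was in AAV-GFP mouse S_2011, where Alb was at 44.0 CPM and Fgb and Tat were at 0. The mean log2 CPM of the hepatocyte markers was -0.85 in that mouse, the lowest of the AAV-GFP mice, which reached 7.81. Agt had an unadjusted p under 0.05 in 12 of 26 alternatives, DESeq2 and limma-voom among them. AAV-Notum mice S_2032 and S_2041, those with the most Notum reads, had the lowest Agt levels, 8.90 and 9.29 CPM. Without them its log2 fold change was -0.72 (adjusted p = 0.652, edgeR). With a covariate the log2 fold change of Agt was -1.64 for the hepatocyte score (adjusted p = 0.236, edgeR), -0.74 for the RNA integrity number (adjusted p = 0.676) and -0.50 for the lymphoid score (adjusted p = 0.834). The part of liver RNA in the Agt values was not tested.

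**Figure D2:**
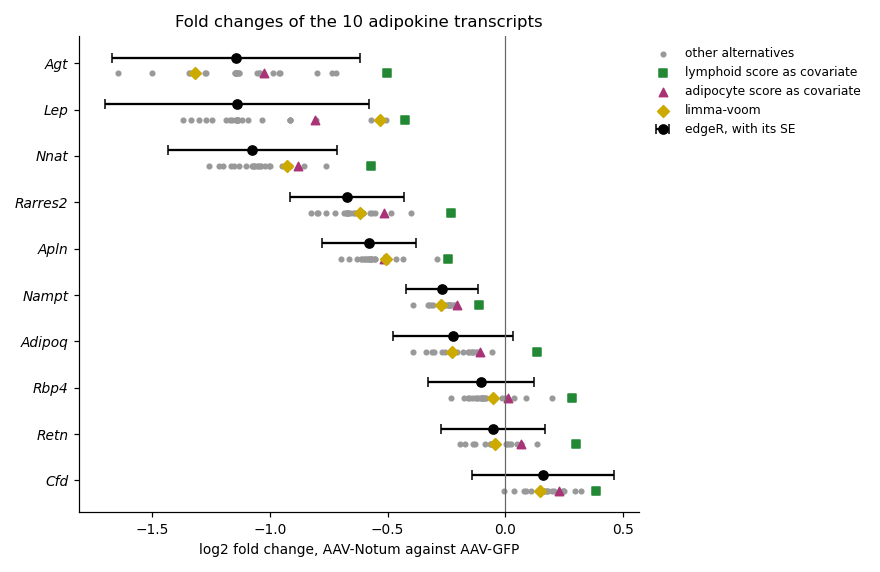
Log2 fold change (AAV-Notum against AAV-GFP) of the 10 transcripts from edgeR with its standard error (black), and under each alternative (smaller symbols below it). The 3 lowest values are those of Agt, Lep and Nnat, and with the lymphoid score as a covariate all values move to the right, those of Adipoq, Rbp4 and Retn past 0.

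The levels of the 10 genes within iWAT were compared per length, as CPM per kb of exon, with the reads of the first table. The second held 43.4% to 46.9% of the Rarres2 reads and 83.2% to 87.1% of the Nnat reads. The places of Rarres2 and Nnat in the order therefore depend on the table. Cfd had the highest level of all 15570 genes of known length in both groups, 17361 ± 4684 CPM per kb in AAV-GFP and 19374 ± 6312 in AAV-Notum mice (SD, n = 6). Adipoq followed in the order of the members with 2834 ± 775 CPM per kb and 2429 ± 807 (rank 15 and 17 among all genes). Nnat (1022 ± 478) and Retn (873 ± 229) came next in AAV-GFP mice and did not differ beyond their spread. In AAV-Notum mice the order of that pair turned, with 842 ± 233 CPM per kb for Retn and 485 ± 146 for Nnat. Rbp4 (248 ± 82.2), Rarres2 (186 ± 62.9) and Lep (127 ± 102) overlapped within their spread in AAV-GFP mice. Lep had rank 232 among all genes by this measure in AAV-GFP and rank 609 in AAV-Notum mice. Agt (33.0 ± 16.2) and Nampt (27.7 ± 4.38) overlapped as well, and Apln had the lowest level, 1.90 ± 0.611 CPM per kb. The spread among AAV-GFP mice was widest for Lep, with a coefficient of variation of 79.9%, and narrowest for Nampt, with 15.8%. Together the 10 genes took 1.79% to 3.10% of the counts in AAV-GFP mice and 1.90% to 3.25% in AAV-Notum mice.

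Among the 12 mice the levels of several members varied together. Of the 36 pairs among the 9 members other than Lep, 21 had a Pearson correlation of log2 CPM with a Benjamini-Hochberg adjusted p under 0.05 (permutation test with 100000 resamples), and all 21 were positive. The resamples ran over all 12 mice without regard to group, so that a difference between the groups adds to r. For Rarres2 with Nnat, r was 0.87 over the 12 mice, 0.96 within the AAV-GFP and 0.37 within the AAV-Notum mice. By Spearman's rho 12 of the 36 pairs did so, all of them among the 21. Without the 2 mice farthest from the median, r lay between 0.25 and 0.92 in the 21 pairs. It was lowest for Apln with Nnat and with Rarres2 (0.25 and 0.27), and in those 2 pairs r was negative within the AAV-Notum mice (-0.22 and -0.31). Adipoq and Retn were the closest pair, with r = 0.91 over the 12 mice (permutation p = 1.3e-04, adjusted p = 0.00468; Spearman's rho = 0.88, permutation p = 3.4e-04, adjusted p = 0.00612). Their r was 0.92 without the 2 mice farthest from the Adipoq median, 0.99 within the AAV-GFP and 0.87 within the AAV-Notum mice. Agt and Rarres2 had r = 0.84 (permutation p = 8.3e-04, adjusted p = 0.00996; Spearman's rho = 0.88, permutation p = 2.7e-04, adjusted p = 0.00612). Their r was 0.78 without the 2 mice farthest from the Rarres2 median and 0.81 and 0.79 within the AAV-GFP and AAV-Notum groups. No correlation was detected between Cfd and Apln over these 12 mice (r = -0.06, permutation p = 0.858, adjusted p = 0.858; rho = -0.15, permutation p = 0.652, adjusted p = 0.670; r = 0.06 without the 2 mice farthest from the Cfd median). For Lep no correlation over all mice is given, since its levels form separate clusters. With the adipocyte marker score as a covariate the standard error of the log2 fold change of Retn went from 0.22 to 0.09, and that of Adipoq from 0.26 to 0.10, while their fold changes stayed near 0 (0.06 and -0.11). It went from 0.24 to 0.15 for Rarres2, but stayed at 0.56 for Lep and at 0.20 for Apln, and was 0.34 for Nnat after 0.36.

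**Figure D3:**
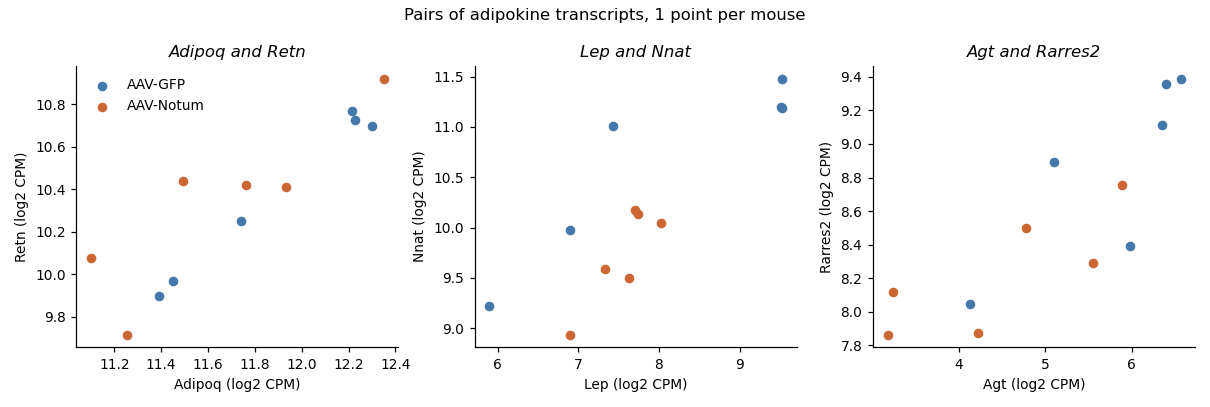
Log2 CPM of Adipoq against Retn, Lep against Nnat, and Agt against Rarres2, 1 point per mouse, AAV-GFP in blue and AAV-Notum in orange. Adipoq and Retn lie along 1 line in both groups, whereas 3 AAV-GFP mice stand apart at the right of the Lep panel.

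The genes whose pattern was most like that of each member were found by Pearson's r of log2 CPM over the 12 mice after subtracting each group's mean, and are given as a description. The points share their libraries and their mix of cells. For Lep they were Lbp, a binder of bacterial lipopolysaccharide, Vgll3, a cofactor of TEAD factors, and Mest, an imprinted gene known to follow fat cell expansion. Because the Lep levels form clusters, no r is given for them. Leaving out the 3 mice of highest Lep would not mend this, since the subtracted AAV-GFP mean includes them. For Nnat they were Ebf1 (0.97), a transcription factor of fat cell and B cell development, Arhgef10 (0.96) and Emp1 (0.96). For Rarres2 they were Gpihbp1 (0.99), which anchors lipoprotein lipase on capillaries, Mgst3 (0.98) and Rgcc (0.98). For Adipoq they were Art3, Ivd and Gm2415 (0.99 to 1.00), for Retn Slc39a1, Urod and Fars2 (all 0.99), and for Cfd 1190005I06Rik, Magix and Adig (0.96 to 0.97). For Rbp4 they were Gstm6, Rnf5 and P4hb (0.94 to 0.95), for Nampt Gm4482, Ric8b and Osgepl1 (0.96 to 0.98), for Apln Pvr, Glg1 and Vps37c (0.87 to 0.96) and for Agt Wbp1l, Gm14379 and Hoxd8 (0.95 to 0.96).

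Adipokines act through receptors, some of them in the fat itself. Of 19 receptor genes 16 passed the filter, and 5 of them were lower in AAV-Notum mice at an unadjusted p under 0.05 and 0 higher, with a median log2 fold change of -0.35. Over all genes tested the shares were 9.54% lower and 4.64% higher, the background for this list and for those that follow. None passed at an adjusted p under 0.05. The chemerin receptor Cmklr1 had the smallest p. It was at 153 to 283 CPM in AAV-GFP mice and at 83.8 to 144 CPM in AAV-Notum mice, so that the groups did not overlap (log2 fold change -0.99, standard error 0.19, adjusted p = 0.101 by edgeR). The adjusted p of Cmklr1 ranged from 1.39e-04 to 0.436 over 26 alternatives and was under 0.05 in 4 of them. C5ar1, the C5a receptor, had a log2 fold change of -0.76 (adjusted p = 0.214) and Cdh13, the T-cadherin that binds adiponectin, one of -0.54 (adjusted p = 0.267). Cdh13 had -0.24 with the lymphoid score as a covariate, and an unadjusted p under 0.05 in 22 of the 26 alternatives. The receptor of leptin, Lepr, had 9.15 CPM in AAV-GFP and 13.4 CPM in AAV-Notum mice on average (log2 fold change 0.55, adjusted p = 0.642, edgeR), and the adiponectin receptors Adipor1 and Adipor2 had log2 fold changes of -0.13 and -0.12 (adjusted p = 0.514 and 0.771).

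Genes that work with a single member were read in the same way. Of 11 tested genes of adiponectin assembly, 3 were lower at an unadjusted p under 0.05 (0 higher): the chaperones and enzymes of the endoplasmic reticulum Hspa5 (log2 fold change -0.32), P4hb (-0.29) and Plod3 (-0.43), with adjusted p of 0.201, 0.312 and 0.324 by edgeR. Of 26 alternatives Hspa5 kept an unadjusted p under 0.05 in 26, P4hb in 16 and Plod3 in 13, and with the lymphoid score as a covariate the values of P4hb and Plod3 were -0.10 and -0.08. Of 6 tested members of the C1q/TNF family, the paralogs of adiponectin, 2 were lower (0 higher). C1qtnf1 was at 40.8 to 68.9 CPM in AAV-GFP and 31.1 to 40.8 CPM in AAV-Notum mice, so that the groups touched (log2 fold change -0.56, adjusted p = 0.151 by edgeR), and C1qtnf9 had a log2 fold change of -0.61 (adjusted p = 0.346). C1qtnf9 kept an unadjusted p under 0.05 in 11 of the 26 alternatives and ran from -0.82 to -0.16. In the resistin family, Retnla, a product of alternatively activated macrophages and fat, had a log2 fold change of -0.54 (adjusted p = 0.226 by edgeR) where Retn had -0.05. Macrophages also express Cmklr1 and C5ar1. Of 13 macrophage markers 2 were lower at an unadjusted p under 0.05 and 0 higher, with a median log2 fold change of -0.09. The lower ones were the scavenger receptor Cd163 (-0.94, adjusted p = 0.0696 by edgeR), at 46.9 to 81.9 CPM in AAV-GFP and 27.2 to 46.1 CPM in AAV-Notum mice, with no overlap, and the mannose receptor Mrc1 (-0.40, adjusted p = 0.312). The summed level of the 13 was 565 to 1825 CPM in AAV-GFP and 1041 to 2073 CPM in AAV-Notum mice, with none at 0, and their part in the values of Retnla, Cmklr1 and C5ar1 was not tested.

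Of 9 tested genes of the alternative complement pathway around adipsin, 1 was lower at an unadjusted p under 0.05 (0 higher). The median log2 fold change of the 9 was -0.02, and the count is near the share of all genes, 9.54% lower. Of 13 tested genes of retinoid handling, which surrounds Rbp4, 2 were lower (0 higher): Aldh1a1, which makes retinoic acid (log2 fold change -1.26, adjusted p = 0.140), and Adh1, which oxidizes retinol (-0.70, adjusted p = 0.211). With the lymphoid score as a covariate these values were -0.70 for Aldh1a1 and -0.34 for Adh1, and Adh1 then had no unadjusted p under 0.05. Of 13 tested genes of NAD metabolism 0 were lower and 1 was higher, Parp1, an enzyme that consumes NAD (log2 fold change 0.48, adjusted p = 0.310 by edgeR). Parp1 kept an unadjusted p under 0.05 in 15 of 26 alternatives and ran from 0.15 to 0.60. Of 11 tested genes that process angiotensinogen or its peptides 1 was lower (0 higher), again near that share. It was the angiotensin converting enzyme Ace (log2 fold change -0.52, adjusted p = 0.201 by edgeR).

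Nnat was read beside other imprinted genes known in fat and beside Blcap. Of 12 genes 9 passed the filter and 7 of them were lower at an unadjusted p under 0.05 (0 higher), with a median log2 fold change of -0.73. Mest, which marks expanding fat cells, was at 9.24 to 83.7 CPM in AAV-GFP mice and at 4.27 to 6.73 CPM in AAV-Notum mice. The groups did not overlap, and the 3 AAV-GFP mice of high Lep had the 3 highest Mest levels, 83.7, 77.7 and 58.0 CPM. For Mest the log2 fold change was -3.10 with a standard error of 0.49 (adjusted p = 0.0518 by edgeR), and its adjusted p ran from 1.13e-08 to 0.334 over 26 alternatives, under 0.05 in 7 of them. Plagl1, a zinc finger factor, had -1.16 (adjusted p = 0.166), or -0.42 with the lymphoid score as a covariate, and Peg3, another zinc finger protein, -0.96 (adjusted p = 0.170).

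**Figure D4:**
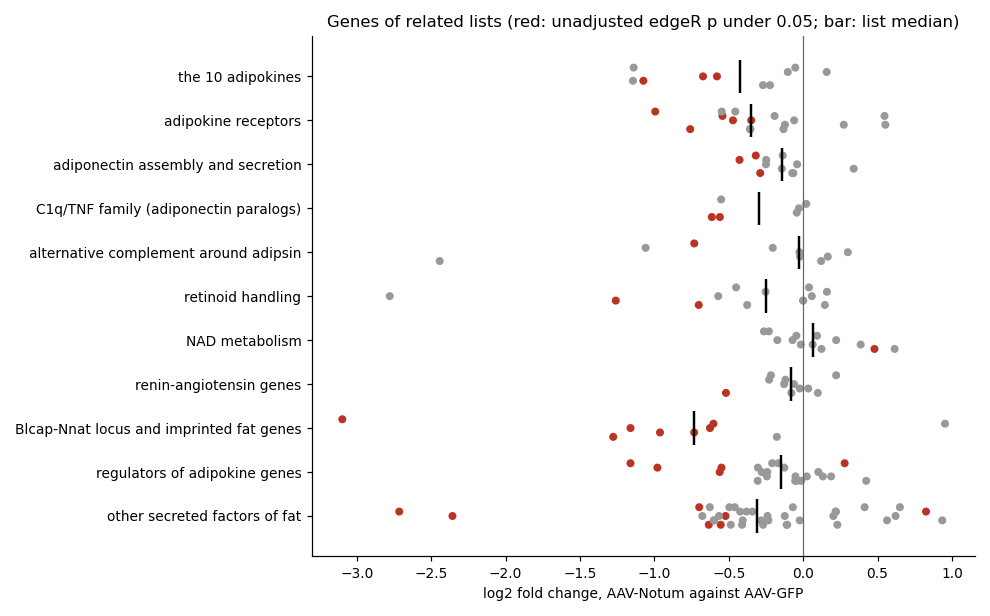
Log2 fold change of each tested gene in the 10 adipokines and in 10 related lists, 1 point per gene, red where the unadjusted edgeR p was under 0.05, with a bar at the list's median. The receptors and the imprinted genes have medians of -0.35 and -0.73, and NAD metabolism has one of 0.06.

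Of 22 transcription factors known to act on adipokine or fat cell genes, at an unadjusted p under 0.05 the count was 4 lower and 1 higher. None passed at an adjusted p under 0.05 in the reported edgeR fit. The lower ones were Cebpd (log2 fold change -0.98, adjusted p = 0.124 by edgeR), Klf4 (-0.55, adjusted p = 0.136), Cebpb (-0.56, adjusted p = 0.214) and Plagl1, and the higher one was Esrra (0.28, adjusted p = 0.208). Cebpd, Klf4 and Plagl1 each had an adjusted p under 0.05 in 2 of 26 alternatives. C/EBPβ and C/EBPδ act early in fat cell differentiation, and KLF4 raises Cebpb transcription at that stage. Cebpa and Pparg, which hold the mature fat cell state, had log2 fold changes of -0.05 (adjusted p = 0.888) and -0.24 (adjusted p = 0.601, edgeR). The 7 genes linked to the thermogenic action of leptin included 1 higher at an unadjusted p under 0.05 (0 lower), the lipid droplet protein gene Cidea (log2 fold change 1.09, adjusted p = 0.242 by edgeR).

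Of 38 tested other secreted factors of fat, 6 were lower and 1 higher at an unadjusted p under 0.05, with a median log2 fold change of -0.31. At an adjusted p under 0.05, 1 of the 38 passed (edgeR).

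Markers of other cell types were set beside the members. All 16 lymphoid markers had a positive log2 fold change (median 0.99), and none had an unadjusted p under 0.05. AAV-GFP mice S_2011 and S_2014, lowest in these markers, had the highest Rarres2 and Apln levels, the highest Agt levels and the highest Rbp4 levels. Once the lymphoid score was a covariate, 0 of the 10 members had an unadjusted p under 0.05, and the log2 fold changes were -0.57 for Nnat, -0.43 for Lep, -0.50 for Agt, -0.24 for Apln and -0.23 for Rarres2. Without those 2 mice 0 of the 10 did so either, with -0.76 for Nnat, -0.29 for Apln, -0.40 for Rarres2 and -0.80 for Agt (edgeR). With the adipocyte marker score as a covariate 5 of the 10 were lower at an unadjusted p under 0.05, adding Agt and Nampt, at a smallest adjusted p of 0.0883. Of 11 endothelial markers 5 were lower at an unadjusted p under 0.05 and 0 higher (median -0.41). Of 12 adipose progenitor markers 2 were lower and 0 higher (median -0.18). All 15 hepatocyte markers had a negative log2 fold change (median -2.82) and 3 were lower. All 8 Schwann and nerve markers had a negative one as well (median -0.46), none at an unadjusted p under 0.05. The summed level of 8 skeletal muscle markers was 3739 CPM in AAV-Notum mouse S_2042, the mouse with the highest Adipoq, Cfd, Retn and Nampt, and 9.30 to 795 CPM in the other 11 mice. The part of these cell types in the members' values was not tested.

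**Figure D5:**
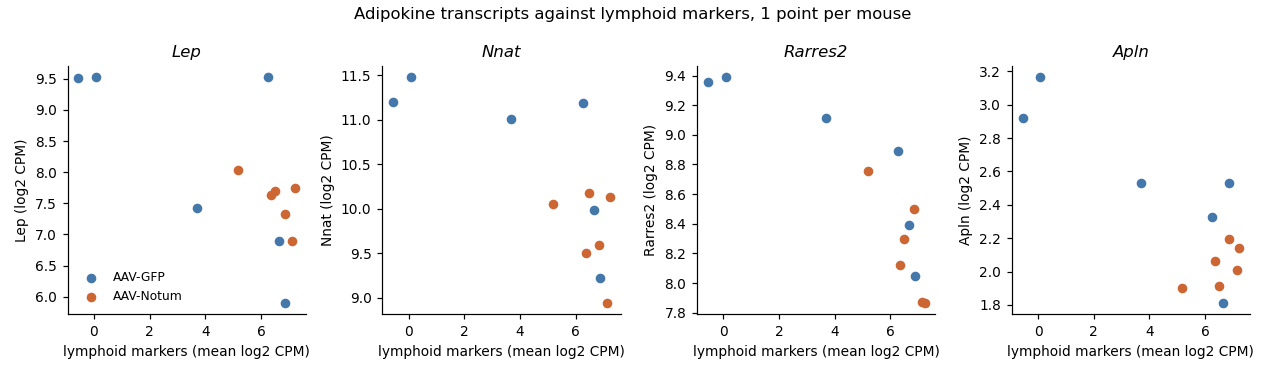
Log2 CPM of Lep, Nnat, Rarres2 and Apln against the mean log2 CPM of 16 lymphoid markers, 1 point per mouse, AAV-GFP in blue and AAV-Notum in orange. AAV-GFP mice S_2011 and S_2014 lie at the left, at 0.08 and -0.56, and mouse S_2021 combines a high Lep level with a lymphoid score of 6.26.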

How the data were processed

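Inguinal fat of 12 mice, 6 AAV-GFP and 6 AAV-Notum, gave 1 library each, grouped by the treatment in their labels. The authors made TruSeq libraries, sequenced 50 bp single-end reads and, per the submitters' processing notes, mapped them to mm10 with STAR 2.3.1 and used DESeq2. The tables deposited by the authors hold raw counts of reads per gene, without normalization, and log2 values, which are log2 of reads over a size factor plus 1 (whole reads recovered for 100% of the low values, within 0.02 of a whole number). The counting program is not given in the sources used here. Columns of no sample numbered 0.

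Raw counts were tested with edgeR 4.0.16 in R 4.3.3: filterByExpr (minimum count 10, minimum total 15), TMM, and the two-sided quasi-likelihood test with Benjamini-Hochberg adjustment over 15585 genes. The SE is the log2 fold change over the root of F. Log2 CPM carry a prior count of 2. Exact permutation tests ran over the 924 assignments of the mice. P-values measure the spread between mice, and counting error adds most for Apln. Only the main edgeR fit, without a covariate, was run on simulated counts, and its outcome there is not reported here. The members and gene lists were chosen with earlier results of these data known. Genes named were the members, Notum, Blcap, in each list the genes with an adjusted p under 0.05 or otherwise up to 3 of smallest p, and the 3 genes of most similar pattern per member, except 2 genes of these lists whose values are not reported here. Most of those in marker lists, or with an unadjusted p of 0.05 or more, are left unnamed. Lrrc61, Lepr, Adipor1, Adipor2, Cebpa, Cebpb, Pparg, Esrra and Trf were named after their values were seen. Positions are from GENCODE vM21 (GRCm38), where 53990 of 54134 identifiers were found, and promoters from RefSeq tables, with entries for 9 of 10 members.

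Alternatives were DESeq2 1.42.0, limma-voom (limma 3.58.1), RLE size factors, no filter, a minimum of 10 counts in all mice, robust dispersion, RNA integrity number or a marker score (lymphoid, hepatocyte, adipocyte) as covariate, the deposited log2 values, and leaving out each mouse or the 2 AAV-GFP mice low in lymphoid transcripts. The reads recovered from the log2 table and the fit without the 2 AAV-Notum mice with the most Notum reads were added after the data were seen. Figures were drawn with matplotlib 3.10.9.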

Additional observations from a re-analysis of the deposited data

Results flagged for a closer look

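In 102 groups of 6 mice (the members, genes of the related lists and the marker lists, in each treatment), 8 had 1 mouse set apart from the other 5 by more than Dixon's critical ratio for 6 values allows. Chance gives about 1 in 20 groups, or 5.1 here. None of the 8 was a level of a member.

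C5ar1 was at 13.1 CPM in AAV-Notum mouse S_2034 and at 6.76 to 9.15 CPM in the other 5. Klf4 was at 75.3 CPM in AAV-GFP mouse S_2012, the mouse whose RNA was isolated on another day, and at 47.3 to 54.4 CPM in the other 5. C1qtnf9 was at 32.9 CPM in AAV-Notum mouse S_2042 and at 12.2 to 19.5 CPM in the others. Cfi, the complement protease factor I, which liver makes, was at 42.5 CPM in AAV-GFP mouse S_2013 (0.224 to 12.5 CPM in the others) and at 7.75 CPM in AAV-Notum mouse S_2041 (0.259 to 1.94 CPM in the others). Those 2 mice also had the highest Alb level of their group, 3805 and 523 CPM. Ucp1 was at 14.5 CPM in AAV-GFP mouse S_2022 and at 47.4 CPM in AAV-Notum mouse S_2041, against at most 2.98 and 13.7 CPM in the other mice of the respective group. The mean log2 CPM of the macrophage markers was 4.87 in AAV-GFP mouse S_2014, against 5.81 to 6.12 in the other AAV-GFP mice.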

How the results depend on the processing

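No member reached an adjusted p under 0.05 under any of the 26 alternatives. The signs of Lep, Nampt, Rarres2, Apln, Nnat and Agt were negative in all of them. Members lower at an unadjusted p under 0.05 numbered 3 in the reported fit, 5 with DESeq2 and with the adipocyte score, 0 with the lymphoid score and 0 without both AAV-GFP mice low in lymphoid transcripts, and 3 to 5 with each mouse left out (5 without AAV-GFP mouse S_2022 or AAV-Notum mouse S_2042).

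The log2 fold change of Retn was 0.0639 with RNA integrity number, 0.30 with the lymphoid score, 0.0644 with the adipocyte score, 0.13 without the 2 AAV-GFP mice and 0.0651 without the 2 AAV-Notum mice with the most Notum reads. In the same order it was 0.0888, 0.28, 0.00906, 0.20 and 0.00787 for Rbp4. With the lymphoid score it was 0.13 for Adipoq and 0.0816 for Blcap, which had 0.0161 without the 2 AAV-GFP mice. With each mouse left out it ran from -0.19 to 0.0498 for Retn, -0.23 to 0.0382 for Rbp4 and -0.00465 to 0.30 for Cfd.

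Genes lower and higher at an adjusted p under 0.05, 8 and 0 in the reported fit, were 402 and 94 with DESeq2, 13 and 1 with RLE, 14 and 1 with at least 10 counts in every mouse, 28 and 3 with the hepatocyte score, and 274 and 90 with the adipocyte score. The lower ones were 5 with no filter, 4 with the lymphoid score, 4 by limma on the deposited log2 values, 1 without the 2 AAV-GFP mice and 0 without the 2 AAV-Notum mice (edgeR), and the higher ones 1 on the recovered reads. With each mouse left out they ran from 1 to 146 and from 0 to 12, the highest without AAV-GFP mouse S_2022. Genes of the related and the cell type marker lists together at an unadjusted p under 0.05 were 45 lower and 4 higher. The lower ones were 27 with the lymphoid score, the higher ones 15 with limma-voom, 13 with the lymphoid score, 19 with the adipocyte score and 13 by limma on the log2 values. Over single mice left out they ran from 34 to 63 and from 3 to 10. The cause of these shifts was not tested. No paired analysis was possible because the mouse numbers of the groups are not shared. Apln, with 55 reads in the lowest mouse, is the member most limited by depth.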
